A study of Glycine max with 26 samples.

Results

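GOLS, the soybean galactinol synthase gene (NCBI gene ID 548050), was represented by 1 of the 16383 probe sets in the table analysed here. It was the only one of 5002 probe sets with a single platform gene symbol that carried GOLS, and the suffix of its ID, in the array maker's naming, is that of a probe set not marked as shared between transcripts. The gene had been chosen by its measured level at subjective dusk against the other phases of the day. That pattern is therefore described below without a test, and tests are given only for measures that the choice did not use.

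Galactinol synthase joins a galactose unit to myo-inositol to form galactinol. Raffinose synthase and stachyose synthase then pass that galactose to sucrose and to raffinose, so that galactinol formation is the first committed step to the raffinose family of sugars. Legume seeds store these sugars late in development, when they also gain tolerance to drying. In Arabidopsis, galactinol synthase genes are known targets of heat shock factors and of dehydration-responsive DREB factors.

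The study asked which seed transcripts follow the circadian clock. Whole seeds with their coats, from Williams 82 plants, were collected 5 weeks after flowering. All plants had been grown in cycles of 12 h light and 12 h dark at 25 °C and were then kept in constant light of the same intensity, so no sampled group had a light and dark cycle of its own. Seeds were taken every 4 h from 24 to 72 h of constant light, 13 times with 2 replicates each, and a replicate pooled 8 seeds from 3 plants. Subjective dusk was 36 and 60 h (4 arrays), subjective dawn 24, 48 and 72 h (6 arrays), subjective day 28, 32, 52 and 56 h (8 arrays) and subjective night 40, 44, 64 and 68 h (8 arrays). The first cycle ran from 24 to 44 h and the second from 48 to 68 h.

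Signals are given on the log2 scale that the authors deposited, normalized between arrays, so a difference of 1 is a change of 2 times. Array medians lay between 6.08 and 6.47. Each array has a floor, its lowest signal, and 13 arrays had a low one, from 1.54 to 2.04, and 13 a high one, from 2.40 to 3.02, with 1 of each kind at every time. GOLS averaged 6.03 ± 0.74 on low floor arrays and 6.01 ± 0.65 on high floor arrays (SD, n = 13 each). On every array it lay at least 2.38 log2 above the lowest signal. The labelled tissue was checked against seed storage genes: the 10 tested probe sets of glycinins, a conglycinin and Kunitz trypsin inhibitors averaged between 13.07 and 16.24 over all arrays. With 2 arrays a time, their number sets the precision. Fewer cells that make a transcript and less of it per cell cannot be told apart in these pooled seeds.

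In the first cycle the time means of GOLS had 2 high points, 4 h after subjective dawn and at subjective dusk. At 24 h the 2 replicates had log2 signals of 5.28 and 6.29, and at 28 h they had 7.46 and 6.79. At 32 h they had 5.83 and 6.48, and at 36 h, subjective dusk, 6.61 and 6.55. The dip at 32 h before dusk was mainly that of replicate 1, as replicate 2 was nearly level from 32 to 36 h. The highest array of the whole series was thus at 28 h and not at dusk, while the replicates at 36 h differed by only 0.06. Through the following subjective night the level was low, with 5.17 and 5.40 at 40 h and 5.69 and 5.80 at 44 h. The 40 h mean of 5.28 was the lowest of the 13 times.

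In the second cycle the early high point was absent, and GOLS stayed low until dusk. The replicates had log2 signals of 5.62 and 5.30 at 48 h and of 5.46 and 5.16 at 52 h. At 56 h they had 5.79 and 5.82, and at 60 h, the second subjective dusk, 6.92 and 7.26. No array from 40 to 56 h was thus above 5.82, and none at 60 h was below 6.92. The replicates then disagreed, with 6.30 and 5.55 at 64 h and 7.06 and 5.60 at 68 h. The gap of 1.46 log2 at 68 h was the widest between replicates of any time. At 72 h they had 5.38 and 5.99.

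**Figure D1:**
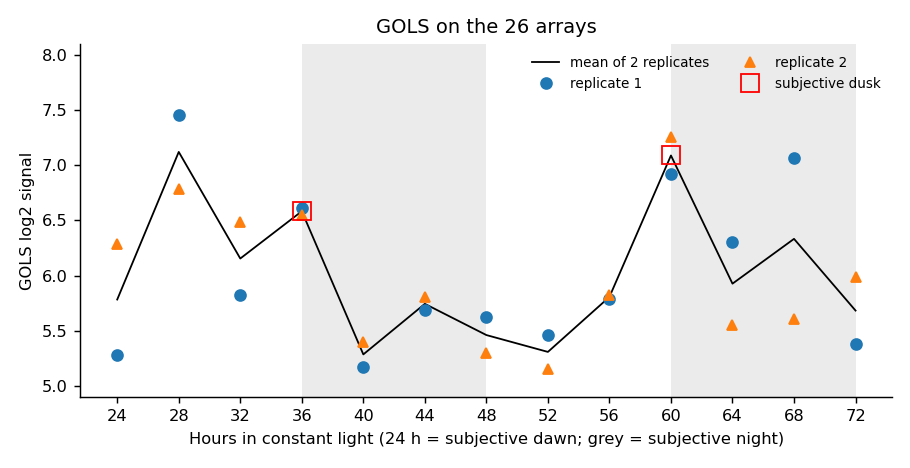
GOLS log2 signal (vertical axis) on the 26 arrays by hours in constant light (horizontal axis), with replicate 1 as circles, replicate 2 as triangles, the mean of the 2 replicates as a line, subjective dusk as red squares and subjective night in grey. The time means were highest at 28 h (7.12), 60 h (7.09) and 36 h (6.58).

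Ordered by their means, the 13 times formed a gradual series below a few high points. The highest was 28 h with 7.12 ± 0.47 (SD, n = 2), followed by 60 h with 7.09 ± 0.24, 36 h with 6.58 ± 0.04 and 68 h with 6.33 ± 1.03. Next came 32 h with 6.15 ± 0.47, 64 h with 5.93 ± 0.53, 56 h with 5.81 ± 0.02 and 24 h with 5.78 ± 0.72. The low end held 44 h with 5.74 ± 0.08, 72 h with 5.68 ± 0.43, 48 h with 5.46 ± 0.23, 52 h with 5.31 ± 0.21 and 40 h with 5.28 ± 0.16. The standard error of a difference between 2 time means was 0.41. Only the step between 60 and 36 h, of 0.51, exceeded it, and it was also the only one at which the replicates of neighbouring times did not overlap. From the lowest to the highest time mean GOLS changed by 3.57 times. This range of 1.84 log2 was larger than that of 99.2% of the 11481 probe sets tested, whose median range was 0.49. The residual SD between replicates of a time was also large, 0.45 log2 against a median of 0.21, and larger than that of 95.6% of probe sets. The 2 replicate series of GOLS correlated at r = 0.55 over the 13 times, and the low floor and high floor arrays at r = 0.54.

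At dusk, the phase that the gene was chosen by, GOLS averaged 6.84 ± 0.32 (SD, n = 4), against 5.87 ± 0.62 (SD, n = 22) on all other arrays. The difference of 0.96 ± 0.22 (SE) log2, 1.95 times, is a description. The 4 dusk arrays overlapped the others, since 3 of the 22 other arrays exceeded the lowest dusk array, both of 28 h and the first replicate of 68 h. By phase, the lowest, median and highest signals were 6.55, 6.76 and 7.26 at dusk, 5.28, 5.50 and 6.29 at dawn, 5.16, 5.82 and 7.46 in the day and 5.17, 5.64 and 7.06 in the night. Dusk exceeded dawn by 1.19 ± 0.26 (SE) log2 with no overlap of the arrays. As the rule used these contrasts, no test is given for GOLS in them. Of all 11481 probe sets tested, 0 (0%) passed limma's contrast of dusk against all other times at an adjusted p under 0.05, with 497 at an unadjusted p under 0.05. For dusk against dawn it was 0 (0%) as well, with 621 at an unadjusted p under 0.05.

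The dusk contrast within each cycle also entered the choice of the gene, so its values by cycle are given without a test. In the second cycle dusk averaged 7.09 ± 0.24 (SD, n = 2) and the other times 5.77 ± 0.55 (SD, n = 10), a difference of 1.32 ± 0.32 (SE) log2. In the first cycle dusk averaged 6.58 ± 0.04 (SD, n = 2) and the other times 6.02 ± 0.73 (SD, n = 10), a difference of 0.57 ± 0.32 (SE) log2. The second difference minus the first was 0.76 ± 0.45 (SE) log2. Over all 11481 probe sets, 0 (0%) passed limma in this comparison of the cycles, with 551 at an unadjusted p under 0.05. For GOLS it was 1.22 ± 0.45 (SE) on high floor arrays alone and 0.29 ± 0.93 (SE) on low floor arrays alone. These 2 fits grouped the times by phase and cycle and left out 72 h. Their standard errors therefore come from differences between times of a phase and are unlike that of 0.76.

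The cycles differed most 4 h after subjective dawn. There GOLS averaged 5.31 in the second cycle and 7.12 in the first, a difference of -1.81 log2 with a standard error of 0.41. This time was singled out after its values were seen, so no test is given. The second cycle was also lower at dawn by -0.32 and at 8 h by -0.35, and higher at 12 h by 0.51, at 16 h by 0.64 and at 20 h by 0.59. Over the 6 phases the time means of the 2 cycles correlated at r = -0.04, a description over 6 points. A fitted 24 h cosine with linear time had an amplitude of 0.33 ± 0.17 (SE) log2 and a peak 10.3 h after subjective dawn, again a description, since the dusk level enters it.

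**Figure D2:**
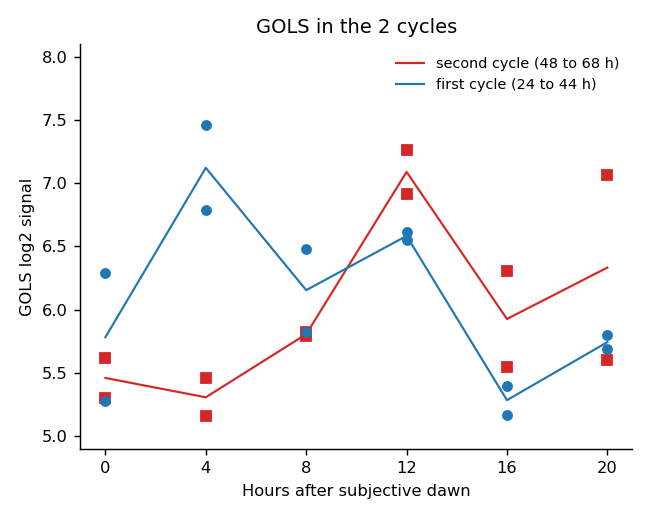
GOLS log2 signal (vertical axis) by hours after subjective dawn (horizontal axis) in the second cycle (red squares) and the first cycle (blue circles), with a point per array and a line through the means. Both cycles are high at 12 h, and they differ most at 4 h, where the second cycle averaged 5.31 and the first 7.12.

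In 3 comparisons that the choice of the gene did not use, GOLS passed no test. Subjective night averaged 5.82 ± 0.60 and subjective day 6.10 ± 0.76 (SD, n = 8 each), a difference of -0.28 ± 0.20 (SE) log2 with a 95% interval from -0.71 to 0.15 (limma adjusted p = 0.512). Here 422 of 11481 probe sets passed (3.68%), so the comparison was able to make calls, and GOLS was not among them. Its sign rested on 1 time: without the 28 h arrays, an alternative chosen after seeing the data, the difference was 0.066 ± 0.22 (SE). The second cycle as a whole averaged 5.99 ± 0.72 and the first 6.11 ± 0.70 (SD, n = 12 each), a difference of -0.12 ± 0.17 (SE) log2 with a 95% interval from -0.48 to 0.23 (limma adjusted p = 0.936). There limma called 1 of 11481 (0.00871%), and 701 had an unadjusted p under 0.05. The linear trend over 48 h was -0.12 ± 0.41 (SE) log2 with a 95% interval from -0.97 to 0.73 (limma adjusted p = 0.995), where 0 probe sets passed (0%), with 612 at an unadjusted p under 0.05. The sign of the last 2 values turned on low floor arrays alone, to 0.061 ± 0.35 (SE) and 0.35 ± 0.65 (SE). The first of these came from a fit that grouped the times by phase and cycle.

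The other enzyme of the pathway with named probe sets, myo-inositol-phosphate synthase, showed no excess at dusk. This enzyme makes the inositol skeleton that galactinol synthase uses. The list of raffinose pathway genes held 3 probe sets besides GOLS, of MIPS and MIPS4, and raffinose and stachyose synthases were not named among the probe sets used here. All 3 were lower at dusk than at other times, and 0 passed, as among all 11481 probe sets tested (0%). One MIPS probe set had 12.90 ± 0.13 (SD, n = 4) at dusk and 12.91 ± 0.21 (SD, n = 22) at other times, a difference of -0.01 ± 0.11 (SE; limma adjusted p = 0.9998). The second MIPS probe set had 10.97 ± 0.15 at dusk and 11.11 ± 0.17 at other times, a difference of -0.14 ± 0.08 (SE). MIPS4, whose probe set ID marks it as open to cross-hybridisation, had 6.74 ± 0.35 at dusk and 7.04 ± 0.27 at other times, a difference of -0.30 ± 0.17 (SE; limma adjusted p = 0.9998). The probe sets of MIPS and MIPS4 come from 1 probe cluster and may bind each other's transcripts.

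The list of sucrose metabolism and transport, sucrose being the acceptor of the galactose, also gave no call. Of 10 probe sets, 7 were above the signal filter and 0 passed, as among all 11481 tested (0%). The median dusk difference of the list was -0.08 log2 against 0.00 over all probe sets tested. The sucrose transporter gene SUT1 differed by -0.22 ± 0.13 (SE) and -0.21 ± 0.15 (SE) in its 2 probe sets, and FBP by -0.32 ± 0.11 (SE; limma adjusted p = 0.975). Sucrose synthase, SS, differed by -0.05 ± 0.11 (SE). The sugar transporter genes SWEET24, SWEET34 and SWEET17 differed by -0.07, -0.08 and 0.03.

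Of the heat shock and DREB factors, 9 of 15 probe sets were above the filter, with a median of 0.06. As among all 11481 probe sets tested, 0 passed (0%). The highest difference was that of DREB2A2, with 4.35 ± 0.53 (SD, n = 4) at dusk and 4.01 ± 0.35 (SD, n = 22) at other times, 0.34 ± 0.22 (SE; limma adjusted p = 0.9998). DREB2 differed by 0.27 ± 0.20 (SE), and the 2 tested probe sets of HSF-01 by -0.15 ± 0.13 (SE) and -0.17 ± 0.14 (SE). The clock list had 3 tested probe sets of 4, none of which passed. The differences were -0.10 ± 0.17 (SE) and -0.07 ± 0.18 (SE) for LHY, a morning factor of the oscillator, and -0.05 ± 0.13 (SE) for COL10, a CONSTANS-like gene. Both LHY probe sets were weak, with means of 4.25 and 4.63 log2 against a filter of 4. These few probe sets do not show whether the clock changed at dusk.

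Seed maturation and desiccation genes, which encode proteins that build up as seeds prepare to dry, had the highest median dusk difference of the 8 lists. All 34 of its probe sets were above the filter, and 29 were higher at dusk. The median difference was 0.24 log2 against 0.00 over all tested. As among all 11481 probe sets tested, 0 passed (0%). An unadjusted p under 0.05 was found for 9 of the 34, against 4.33% of all tested. Members read on the same arrays can move together, so the 9 are not independent. The members with the smallest p were PM41, with 12.75 ± 0.21 (SD, n = 4) at dusk and 12.22 ± 0.42 (SD, n = 22) at other times (limma adjusted p = 0.945), PARP3, also listed as PM38, with a difference of 0.30 ± 0.10 (SE), and TENA_E, also listed as PM36, with 0.33 ± 0.12 (SE). MAT1, a dehydrin picked here for its value, had the largest difference of the list, 1.35 ± 0.55 (SE; limma adjusted p = 0.9998). The mean of the list lay between 11.96 and 12.14 on the dusk arrays and between 11.26 and 12.37 on the others, so the groups overlapped. Its highest time mean was at 28 h, 12.29, and its lowest at 40 h, 11.34, the times at which GOLS was highest and lowest. The list mean was next highest at 32 h, 12.14, above the dusk times of 60 h, 12.11, and 36 h, 12.00. GOLS at 32 h, 6.15, was instead below its means at 60 h, 7.09, and 36 h, 6.58. With the list mean of each array as a covariate, an alternative chosen after seeing the data, GOLS exceeded the other times at dusk by 0.53 ± 0.15 (SE) log2, against 0.96 without it. The same fit gave 0.70 against 1.32 in the second cycle, 0.34 against 0.57 in the first, and 0.75 against 1.19 for dusk minus dawn. The slope of the covariate comes only from differences between replicates of a time. Whether it holds between times was not tested, nor was a cause of the smaller values.

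Markers of tissues in the seed had lower or nearly equal signals at dusk, and 0 passed. The 10 green tissue probe sets tested, of light-harvesting proteins, Rubisco activases and photosystem I, were all lower at dusk, with a median difference of -0.34 log2. None of the 10 passed, as among all 11481 probe sets tested (0%). Of the 10, 8 had an unadjusted p under 0.05, against 4.33% of all tested. Several of them read the same gene on the same arrays, such as RCA14 and LHCP, so the 8 are not independent. Their mean lay between 9.95 and 10.14 at dusk and between 9.80 and 10.77 at other times, and 3 further probe sets were below the filter. The 4 probe sets of the seed coat list were lower by a median of -0.13. Their mean lay between 13.10 and 13.37 at dusk and between 12.95 and 13.69 at other times. HPS differed by -0.26 and Ep by -0.18, against -0.07 each for SBP2 and sbp. Whether SBP2 and sbp mark the coat was not tested, so the list median need not be that of the coat. The 10 embryo and storage probe sets were nearly level, with a median of -0.03 and means between 14.57 and 14.80 at dusk and between 14.57 and 14.94 at other times. Of the storage markers, 1 further probe set, of CG-1, was below the filter, and no marker was listed at 0. The part of tissue makeup in the level of GOLS was not tested.

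**Figure D3:**
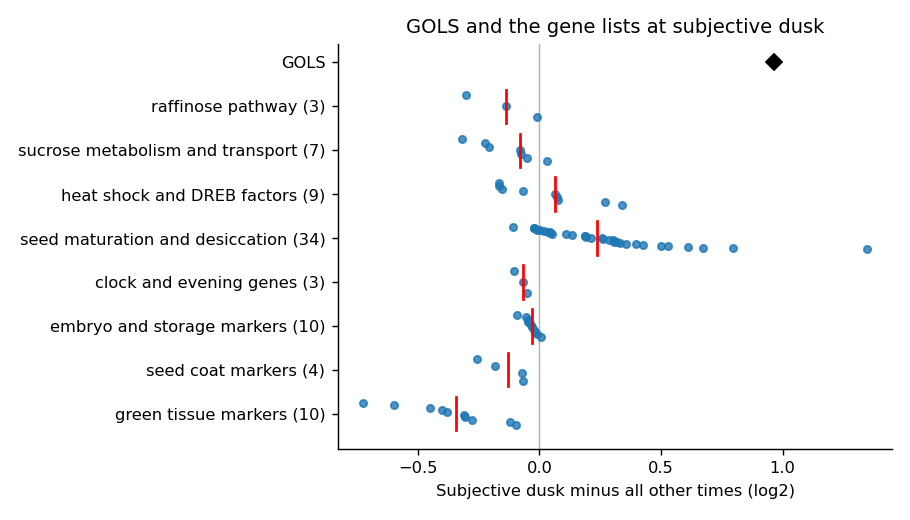
Difference in log2 signal between subjective dusk and all other times (horizontal axis) for GOLS (black diamond) and each tested probe set of 8 gene lists (blue points, list medians as red lines, number of probe sets in brackets). GOLS lies at 0.96, the maturation list has a median of 0.24 and the green tissue list one of -0.34.

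The 6 named genes whose time course was most like that of GOLS included 3 of the seed maturation list. Likeness was measured as Pearson's r over the 13 time means among 3876 tested probe sets with 1 gene symbol, for which the median r was -0.10. The 6 highest were TENA_E (r = 0.94), PM41 (r = 0.93), PM35 (r = 0.92), LOC547494 (r = 0.91), BG7S-2 (r = 0.90) and LOC100306350 (r = 0.90). The signal of LOC100306350 was weak, with a mean of 4.15 log2 against a filter of 4 and a time mean of 3.55 at 40 h. PM41 and PM35 are named as seed maturation proteins, and BG7S-2 as a basic 7S globulin. Apart, the arrays of replicate 1 gave r of 0.79 to 0.89 for these 6, and those of replicate 2 gave 0.91 to 0.95. Of the 41 probe sets with r above 0.8, 15 belonged to the maturation list (36.6%), which were 44.1% of that list. Of the 34 list members, 32 had an r above 0, with a median of 0.77. These values are descriptions over time means, each of 2 arrays.

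Each of the 6, like GOLS, had its highest time mean at 28 or 60 h. BG7S-2 had 12.80 and 13.14 at 36 h and 13.30 and 13.59 at 60 h, its 4 dusk values, and 13.47 and 13.13 at 28 h. Its lowest time, as for GOLS, was 40 h, with 10.52 and 11.08. LOC547494, for which the files give no name, had 7.99 and 7.36 at 36 h, 8.04 and 8.28 at 60 h, and 9.33 and 8.26 at 28 h. Its 36 h mean of 7.67 was below those of 32 h, 8.12, and 68 h, 7.73, and the 36 h mean of BG7S-2, 12.97, was below that of 32 h, 13.05. PM41 had 12.66 and 12.62 at 36 h and 12.67 and 13.06 at 60 h, and its 28 h values were 12.83 and 12.86. The size of the swings differed: the range of time means was 2.87 log2 for LOC547494, 2.65 for BG7S-2 and 1.84 for GOLS, but 1.10 for PM41 and 0.90 for TENA_E. The 3 probe sets with the lowest r were LOC100801468 (r = -0.89), LOC100808148 (r = -0.89) and LOC100778240 (r = -0.86), none of which has a descriptive name in the files. In replicate 1 and replicate 2 apart, r was weaker. It was -0.65 and -0.69 for LOC100801468, -0.45 and -0.31 for LOC100808148, and -0.79 and -0.62 for LOC100778240. LOC100808148 was also weak, with a mean of 4.46 log2, and its time means ranged over only 0.54.

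**Figure D4:**
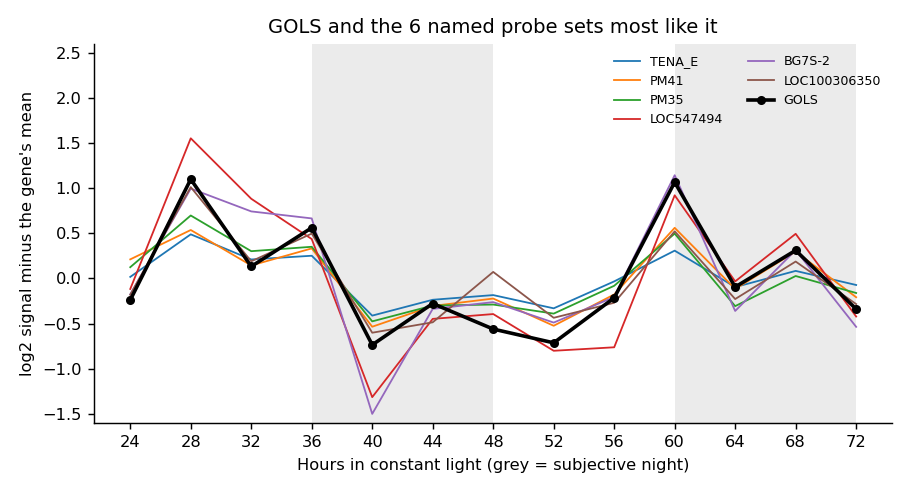
Time means of log2 signal minus the gene's own mean (vertical axis) by hours in constant light (horizontal axis) for GOLS (thick black line) and the 6 named probe sets with the highest r to it (thin lines), with subjective night in grey. All 7 are high at 28 and 60 h and low at 40 h.

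GOLS and the maturation genes also moved together between the replicates of a time, a measure that neither the choice of GOLS nor the time means used. At each of the 13 times the log2 signal of replicate 1 minus that of replicate 2 was taken, for GOLS and for the mean of the 34 maturation probe sets. At 68 h the difference was 1.46 for GOLS and 0.69 for the list, and at 24 h it was -1.01 for GOLS and -0.32 for the list. At 11 of 13 times both had the same sign. Pearson's r was 0.84 (permutation p = 3.50e-04, adjusted p = 0.0028) and Spearman's rho 0.85 (permutation p = 5.50e-04, adjusted p = 0.0044), two-sided and adjusted over 16 relations computed. Without the 2 times farthest from the median of the list, 68 and 72 h, r was 0.74. When the differences were taken as low floor minus high floor arrays, r was 0.86, and with any 1 time left out it lay between 0.76 and 0.87. Of the 34 members, 28 had an r above 0, from -0.25 for CP3 to 0.89 for PM39. The median r of the members was 0.70, against -0.07 over all probe sets tested other than GOLS, of which 41.1% had an r above 0.

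The 6 probe sets most like GOLS in time gave r of 0.70 to 0.86 in the same replicate differences, and all 6 passed (permutation p adjusted over 16 relations, 0.0028 to 0.017). The value was 0.86 for LOC547494, 0.78 for TENA_E and 0.76 for BG7S-2. Of the 6, TENA_E, PM41 and PM35 belong to the maturation list, so their values in part repeat the result of that list. The 3 with the lowest r in time gave -0.07, -0.01 and -0.46, and none passed. Nor did the mean of the 3 MIPS and MIPS4 probe sets, with an r of -0.55 (permutation p = 0.0521, adjusted p = 0.104), of the green tissue markers, with -0.44, of the embryo and storage markers, with -0.29, of the heat shock and DREB factors, with 0.29, or of the sucrose list, with -0.19. The array median had an r of -0.26. These relations were chosen after the time courses had been seen, and the labels do not say how the pools of 1 time differed.

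**Figure D5:**
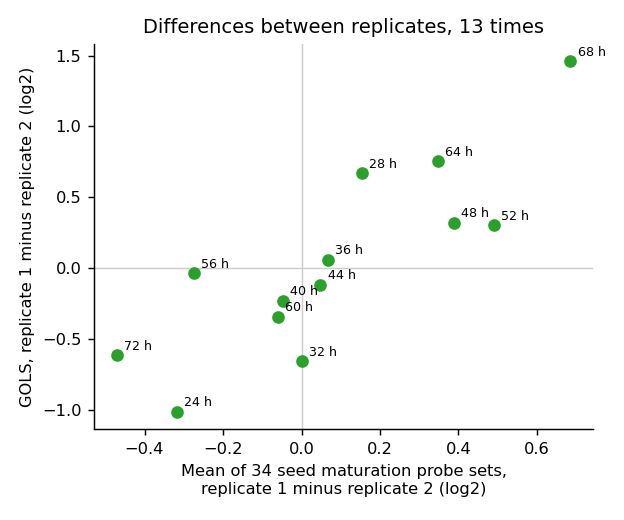
GOLS log2 signal, replicate 1 minus replicate 2 (vertical axis), against the same difference of the mean of the 34 seed maturation probe sets (horizontal axis), with 1 labelled point for each of the 13 times. The points run from 72 and 24 h at the lower left to 68 h at the upper right (Pearson's r = 0.84).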

How the data were processed

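Expression was measured on 26 single-colour arrays, 13 times with 2 replicates each, hybridised with biotin-labelled cRNA, per the labels' protocols. The authors deposited log2 signals, made with GCRMA per the submitters' processing notes, and the scale was read from their range. GCRMA can compress changes of weak signals. For its version, the sources used here give nothing.

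Names came from the platform annotation, which gave 1 symbol for 5002 probe sets, 4989 of them found in a RefSeq table of assembly Glycine_max_v4.0. Symbols can be old. Symbols consisting of a locus number were replaced by a RefSeq synonym where one was listed. PMM, which matched a pattern of the maturation list only by its synonym, was left out of that list. TENA_E, PARP3 and CP3 also entered the list by a synonym and were kept. No coordinates or sequences are printed.

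A mean log2 signal over 4 was required for testing, which 11481 of 16383 probe sets met (70.1%). All fits used limma 3.58.1 in R 4.3.3 (lmFit, eBayes, Benjamini-Hochberg at 0.05 over all tested): contrasts in a fit of 13 times, and linear time in a fit with a 24 h cosine and sine. The dusk difference between cycles was planned as a test of GOLS and is given as a description, since the rule used dusk in each cycle. Permutation tests used 100000 draws. The steps were tested on simulated data. Alternatives covered the filter, normalization, variance moderation, blocks, floors and arrays left out.

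GOLS and the lists were chosen with earlier results of these data known. Named genes were GOLS, the raffinose pathway list, up to 3 members of each other list by smallest p at dusk, and the 6 most and 3 least like GOLS over time. SS, the SWEET genes, CP3, PM39, MAT1 and sbp were added after their values were seen. Whether the replicates of a time shared plants is not stated in the labels, and p-values therefore reflect only how far these samples varied. Replicate arrays correlated at r from 0.977 to 0.994, with 0 values in common.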

Additional observations from a re-analysis of the deposited data

How the results depend on the processing

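GOLS passed none of its 3 tests under any alternative run, with limma adjusted p from 0.189 to 0.962 for night minus day, 0.431 to 0.9997 for the second minus the first cycle and 0.545 to 0.9999 for the linear trend. Differences turned in sign on low floor arrays alone for the linear trend (0.35) and the second minus the first cycle (0.061), and, in alternatives chosen after seeing the data, without the 28 h arrays for night minus day (0.066) and with the maturation list mean as a covariate for night minus day (0.014) and the second minus the first cycle (0.029). That covariate also moved the dusk difference of the second cycle to 0.70, of the first cycle to 0.34 and of all times to 0.53, dusk minus dawn to 0.75 and the dusk excess between cycles to 0.36. The fit without 28 h shows how far night minus day rests on those arrays. The covariate fits kept all arrays and give the values after adjustment for the maturation list mean. Their slope comes only from differences between replicates of a time. The cause of the turns on low floor arrays was not tested. With 1 array left out in turn, the linear trend ranged from -0.33 to 0.087, turning without 24h replicate 2 (0.012) or 28h replicate 1, night minus day from -0.46 to -0.09, the second minus the first cycle from -0.25 to -0.0031, the dusk excess between cycles from 0.58 to 0.93, and dusk minus all other times from 0.88 to 1.05. No call of GOLS or of the lists changed with the replicate block, under which night minus day had a limma adjusted p of 0.516 and a standard error of 0.21; deviations of same-numbered arrays correlated at -0.38 to 0.61 over times, so the numbers were not taken as pairs. The lists other than the tissue markers had 0 calls at dusk under every alternative run for them. Calls of the tissue marker lists were not counted in the alternatives. Without 60h replicate 1, 1 of all probe sets tested was called at dusk. The count of all probe sets called for night minus day, 422, was 213 with no filter and 122 without 28 h. On low and high floor arrays alone, where fewer arrays entered, it was 7 and 4, and 209 to 483 with 1 array left out. The same count was higher with the replicate block (457), a filter at 6 (460) and an intensity trend with robust prior (495). It was highest with quantile normalization (541) and the floor kind as a block (570). That for the second minus the first cycle, 1, ranged from 0 to 4, and that for the linear trend, 0, reached 3 without the 24 h terms. Of the 6 genes most like GOLS, 4 were also among the 6 by r over the 26 arrays.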
